A study of Arabidopsis thaliana with 12 samples.

Results

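To describe which genes separated a constant from a natural light pattern at the same high daily amount of light, the loci listed as differentially expressed between SQH and FLH leaves were grouped by function, size of change and abundance. Both groups were wild-type Arabidopsis thaliana of the accession Col-0, grown with ample water, and both groups had 3 libraries of polyadenylated leaf RNA from independent replicates. Under SQH (square light, high intensity) the lamp was held at a single level throughout the day, whereas under FLH (fluctuating light, high intensity) it followed a recorded outdoor course, with a gradual dawn and dusk and with peaks and troughs between them. The daily sum of light was the same in both, the youngest fully expanded leaves were taken around midday, and the light at the moment of harvest was not matched, so that its part in any difference below cannot be told apart from that of the daily pattern.

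The deposited table of this comparison held 4635 rows. A single locus, AT1G06630, was listed in 2 of them and was left out, which left 4633 genes, all of which had passed DESeq2's adjusted p of 0.05 and differed by 0.5 or more on the log2 scale. These were 22.2% of the 20865 genes tested and part of the 6520 distinct loci in the 4 tables of the series, and for 2680 this was the only table that listed them. Of the 4633 genes, 2106 (10.1% of the genes tested) were higher in SQH and 2527 (12.1%) were higher in FLH. In the sign used throughout, a positive log2 fold change means higher in SQH. The standard errors of genes shared between tables gave this reading in 439 of 439 checks, and the study labels the sides of its plots the other way round. The difference reaches part of its text. There the -2.48 of MCCA between square and fluctuating light at low intensity is read as a decrease in fluctuating light. With the sign used here the same value means higher in fluctuating light. Its passage on transposable elements reads the sign as here, taking an increase between SQH and FLH as more transcription in SQH. Because every gene in the table was chosen by its own test, fold changes are given here as a description with their standard errors (SE), and the only further test on them is that of their difference from the low-intensity fold changes, given near the end. Values of single libraries are not analysed here, so spread between replicates enters only through the SE, whose median was 0.49 on the log2 scale. A gene outside the table is not shown to be equal in SQH and FLH. The gene lists below were chosen with earlier results of these data known, so their counts are a description and no independent support. Among the genes named below, MCCA, NPQ1, STP1, APR2, SARD1, TCH3, CA1, GSTF11, GSTF2, BCAT4, KCS2, LHCB2.3, SMZ, CRD1, SPL15, GUN4, MYB11, WRKY53, MIR824, MIR822, AT5G02830, HSFA3, PHOT2, UGT75C1, LUX, BOA and MYBR1 share between 307 and 2760 bases with another annotated gene, so that without strand the source of their reads is uncertain, and shorter overlaps are common among the rest.

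Light reaches gene expression along several routes that the members below belong to. Photoreceptors and chloroplast signals set the transcripts of photosynthesis and of sunscreen pigments, and the circadian clock, a loop of morning and evening repressors, times most of them to a part of the day. The carbon fixed in photosynthesis sets a further layer, in which sugar represses genes for mobilising reserves, and sudden changes of light or temperature act through calcium, ethylene, jasmonate and their transcription factors.

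The largest changes were mostly on the FLH side. The median absolute log2 fold change was 1.641 among genes higher in SQH and 1.963 among genes higher in FLH. At an absolute change of at least 2, 760 genes were higher in SQH and 1234 in FLH. At a change of at least 6 the numbers were 35 and 79, so the share higher in FLH went from 54.5% of all listed genes to 69.3% of the most changed ones. Abundance divided the directions differently. It is measured here by the mean normalised count, the mean over all 12 libraries of the series of reads per gene divided by a size factor. FLH-higher genes were 57.7% of the 1533 genes with a mean normalised count between 1000 and 10000 and 56.1% of the 1962 genes between 100 and 1000. They were the minority at both ends, with 39.8% of the 128 genes under 10 and 39.1% of the 138 genes at 10000 or more. The leaf's most abundant listed transcripts were thus more often higher in SQH, by a median of 1.44, whereas the 54 abundant transcripts higher in FLH differed by a median of 2.417 on the log2 scale. Genes under a count of 10 had a median SE of 1.63 and their fold changes are poorly determined.

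**Figure D1:**
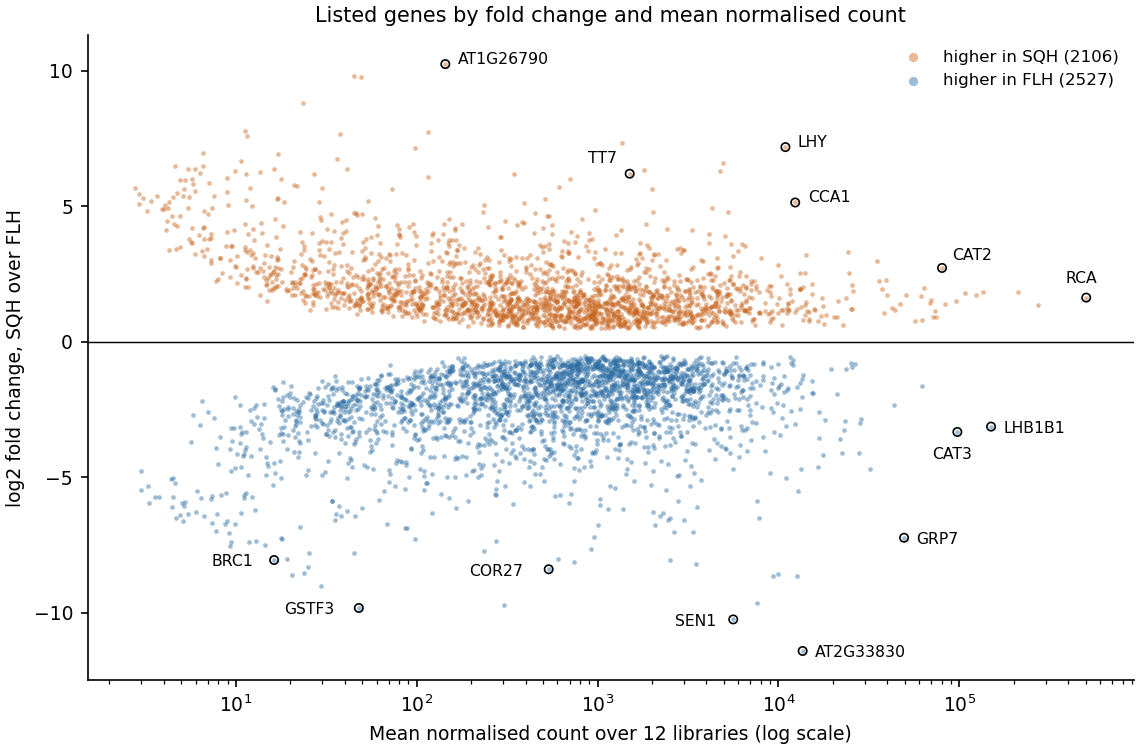
Log2 fold change of SQH over FLH (vertical axis) against the mean normalised count over 12 libraries (horizontal axis, log scale) for the 4633 listed genes, coloured by the regime with the higher level, with selected genes ringed and labelled. The empty band around 0 is the fold-change threshold of 0.5. SEN1 and AT2G33830 lie lowest, at -10.25 and -11.42, and RCA, the point farthest to the right, lies at 1.63. Low-count genes fan out on both sides.

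At the lower edge of the table, the members just inside the fold-change threshold were AT5G03900 (0.50) and AT3G01980 (0.50) on the SQH side and AT1G08125 (-0.51) and AT5G08540 (-0.52) on the FLH side. The members with the largest adjusted p, 0.05 after rounding, were AT1G61000, a kinetochore protein gene, and AT5G07730.

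Promoter letters gave a view of these genes that the table itself did not use. Windows of 250 bases before and 50 bases after the annotated start were read for 27443 protein-coding genes of TAIR10.1, and both strands were searched. The evening element, AAATATCT, the site through which the morning clock proteins CCA1 and LHY repress evening genes, was in 5.65% of all promoters, in 3.51% of those of SQH-higher genes and in 11.8% of those of FLH-higher genes. Among the 159 protein-coding genes higher in FLH by at least 4 on the log2 scale with a mean count of at least 100, it was in 24.5%, and it was in 5 of the 6 promoters of listed evening clock genes. The windows below are examples, picked from FLH-higher genes with clock or cold roles and from MEE14, and not every match is shown. ELF4, LUX and AT4G33980 carried the element too. Capitals mark the element, which reads AGATATTT where it lies on the opposite strand, and each window is given 5′ to 3′ on the gene's own strand.
COR27 (chr5:17200080-17200107, minus strand): aattatttatAAATATCTaagaatgagt
COR27 (chr5:17199932-17199959, minus strand): ggacggtggaAGATATTTtgcagttgaa
FKF1 (chr1:25508443-25508470, plus strand): tgagtaggctAGATATTTtctcggaata
GRP7 (chr2:9266595-9266622, minus strand): tgctccactgAGATATTTttctttgtcc
CCL (chr3:9827580-9827607, plus strand): atcctttaaaAAATATCTtcttcctttt
TOC1 (chr5:24674802-24674829, plus strand): aaatatcatgAGATATTTtctccaagat
MEE14 (chr2:6922210-6922237, minus strand): taccaatctaAGATATTTtacaatctta

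On the SQH side the motif with a raised share was the G-box, CACGTG, which basic leucine zipper and basic helix-loop-helix proteins of light signalling bind. It was in 7.68% of all promoters, in 10.5% of those of SQH-higher genes and in 8.21% of those of FLH-higher genes. At log2 changes of at least 4 and mean counts of at least 100, it was in 18.2% of 44 SQH-higher promoters. The share of 159 such FLH-higher promoters was 11.95%, also above that of all promoters. Of the 8 SQH-higher morning clock genes, 7 carried it. With only the 250 bases before the start read, the share of these 8 genes was 50%. Capitals mark it in the windows of SQH-higher genes with large changes.
LHY (chr1:37936-37961, minus strand): acaatatcacCACGTGtcgatctgcg
CCA1 (chr2:19245388-19245413, plus strand): gtgtatcagaCACGTGtcgacaaact
ASG4 (chr1:190314-190339, plus strand): gatcgtattcCACGTGgcaatttatg
BBX30 (chr4:8708759-8708784, plus strand): aatatttttcCACGTGtacaaccagt
MIPS2 (chr2:9454347-9454372, minus strand): acatctttgcCACGTGtccatacagc

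The letters TATCCA, known from sugar-starved rice cells, and the I-box, GATAAG, were both commoner before FLH-higher genes. TATCCA was in 16.1% of all promoters, 15.8% of SQH-higher and 22.0% of FLH-higher ones, and in 9 of the 15 FLH-higher genes of carbon starvation. With only the 250 bases before the start read, the share of these 15 genes went from 60% to 33.3%. GATAAG was in 14.7%, 12.2% and 19.8% in the same order. The sequences are not independent of each other, because TATCCA reads TGGATA on the opposite strand and can run into GATAAG: 911 promoters held both, and in 373 the matches overlapped. In the window of ASN1 both occur side by side. Capitals mark TATCCA.
ASN1 (chr3:17441517-17441542, minus strand): gataagtaccTATCCActtgctgact
TPS11 (chr2:8108747-8108772, plus strand): ataccaatcaTATCCAtctcgagaaa

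The W-box of WRKY proteins, TTGACC or TTGACT, was in 32.4% of all promoters, 27.8% of those of SQH-higher genes and 41.0% of those of FLH-higher genes. The dehydration-responsive core CCGAC, which CBF proteins bind, was near its overall share of 15.1% in both directions, with 13.6% in SQH-higher and 15.6% in FLH-higher genes. The telo-box, AAACCCTA, common before ribosomal protein genes, was in 6.22% of all promoters and in under 3% of either group, at 2.49% and 2.59%. A match is a description of letters, not a site shown to be bound.

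Among the genes higher in SQH with a mean count of at least 100, the smallest p values belonged to the following. AT5G67200, a leucine-rich repeat kinase gene, was higher by 2.71 (SE 0.24), and AT1G23205, an inhibitor of invertase or pectin methylesterase, by 4.87 (SE 0.45). MPK19, a MAP kinase, was higher by 2.80 (SE 0.27) at a mean count of 2223. TT7, the flavonoid hydroxylase that adds the second hydroxyl group of quercetin and cyanidin, was higher by 6.20 (SE 0.66) at a mean count of 1506. AGL24, a MADS-box promoter of flowering, was higher by 2.33 (SE 0.25), and the kinase gene AT3G20200, which overlaps its neighbour by 15 bases, by 2.96 (SE 0.33). The largest changes on this side at a mean count of at least 100 were those of AT1G26790, a Dof zinc finger gene, at 10.25 (SE 2.06, mean count 144), the defensin-like gene AT1G13609 at 7.73 (SE 1.82), the pseudogene AT3G15310 at 7.33 (SE 1.16) and LHY, a morning repressor of the clock, at 7.19 (SE 1.13, mean count 10933). AT5G54130, which encodes a calcium-binding phosphatase-like protein, followed at 6.602 (SE 0.93) and AT1G60590, a pectin lyase-like gene, at 6.35 (SE 0.77).

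Among the genes higher in FLH with a mean count of at least 100, the smallest p values belonged to SEN1 (AT4G35770), the dark-inducible gene also called DIN1, at -10.25 (SE 0.91) and to the kinase gene AT3G59350. COR27, a cold-regulated repressor within the clock, was at -8.40 (SE 0.81, mean count 537), the wall-associated kinase gene WAKL2 at -3.75 (SE 0.36), with 160 bases shared with a neighbour, and ERDL6, a vacuolar glucose exporter, at -2.69 (SE 0.26). The gene with the largest absolute change of the whole table was AT2G33830, a dormancy- and auxin-associated gene, at -11.42 (SE 1.13) with a mean count of 13615. At this minimum count the next largest changes after SEN1 included MEE14 at -9.66 (SE 0.99, mean count 7595) and AT4G33980, the COR28 partner of COR27, at -9.73 with a larger SE of 2.16. AT3G15450, named for its YGL and LRDR motifs, was at -8.64 (SE 0.91, mean count 12686), and ASN1, the asparagine synthetase that stores nitrogen when carbon is short, was at -8.63 (SE 0.95, mean count 9278). All of these FLH-higher genes except COR27, AT4G33980 and WAKL2 had mean counts above 1000, so that the extreme folds on this side were not limited to rarely read transcripts.

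Most of the most abundant transcripts of the table were photosynthetic and higher in SQH. RCA, the activase of Rubisco, had a mean normalised count of 503060 and was higher by 1.63 (SE 0.48). The Rubisco small subunit genes RBCS3B (mean count 272948) and RBCS2B (134805) were higher by 1.36 (SE 0.36) and 1.84 (SE 0.52), CA1, a chloroplast carbonic anhydrase with a mean count of 210375, by 1.84 (SE 0.61), and GUN5, a subunit of the magnesium chelatase of chlorophyll synthesis with a count of 122984, by 1.74 (SE 0.38). The small subunit genes are nearly identical copies, so reads could be split between them, and CA1 shares 343 bases with another gene. GLDP1, the P-protein of glycine decarboxylase, completed this group at 1.81 (SE 0.70, mean count 107377). On the FLH side the most abundant were LHB1B1, an antenna protein of photosystem II, at -3.13 (SE 0.90, mean count 149875) and CAT3, a catalase, at -3.33 (SE 0.87, mean count 97551). CP5 (-1.64), the clock-controlled RNA-binding protein gene GRP7 (-7.24, SE 1.13, mean count 49510), the glycine-rich GRP-3 (-2.33) and the CCR-like gene CCL (-4.69) followed.

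The listed genes of carbon fixation lay on the SQH side. Of 19 annotated Calvin cycle genes, 6 were listed and all were higher in SQH, by 1.15 to 1.84, and their median mean count was 108800. Apart from RCA and the small subunits they were PRK, which makes the CO2 acceptor (1.15, SE 0.40), SBPASE, which regenerates it (1.697, SE 0.63), and GAPA-2, a subunit of the reducing step (1.38, SE 0.50). Photorespiratory genes, which recycle the by-product glycolate, were picked from the abundant end of the table after their values were seen, so they stand as examples and not as a count. They were the glycolate oxidases GOX1 (1.49, SE 0.51) and GOX2 (1.08, SE 0.35), GLDP2 (2.28, SE 0.70), the T-protein AT1G11860 (1.39, SE 0.42), the peroxisomal hydroxypyruvate reductase HPR (1.24, SE 0.41) and the peroxisomal catalase CAT2, AT4G35090 (2.72, SE 0.91, mean count 80294). GLU1 and GS2, which refix the ammonium that glycine decarboxylase releases, were higher by 1.52 and 0.92. The thylakoid itself was hardly represented: of 79 annotated genes of the photosystems and electron transport, 4 were listed, all higher in SQH by 0.79 to 1.38, among them PPL1 (1.24), PnsL1 (1.38) and PnsB1 (1.21), the last pair subunits of the chloroplast NADH dehydrogenase-like complex. Of 17 antenna genes 2 were listed, LHCB2.3 in one direction (1.98, SE 0.66, with 595 bases overlapping another gene) and LHB1B1 in the other. For comparison, 16.4% of all 27562 annotated protein-coding genes were listed.

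Some chlorophyll and carotenoid genes were picked in the same way and lay on both sides. GUN4 (1.94), an activator of the magnesium chelatase, the cyclase subunit CRD1 (0.92), CH1, which makes chlorophyll b (1.22), and GPRI1, the GOLDEN2-like activator of chloroplast genes (1.15, SE 0.28), were higher in SQH, as was PSY, the entry enzyme of carotenoid synthesis (1.51). GUN4 shares 946 bases with another gene. PORA, the protochlorophyllide reductase of dark-grown seedlings, went the other way at -7.36 (SE 1.68, mean count 275). Of 24 photoprotection genes listed by name, 7 were higher in SQH and 3 in FLH. The SQH members included SIG5, a chloroplast sigma factor induced by blue light (3.54), the xanthophyll enzymes ABA1 (2.23), BCH2 (3.45), BCH1 (2.18) and LUT2 (1.31), and the antenna-like OHP1 (1.54). In the xanthophyll cycle the direction split by enzyme: ABA1, which makes violaxanthin, was higher in SQH, and NPQ1, which converts it back to zeaxanthin in excess light, was at -1.67 (SE 0.29), although NPQ1 shares 464 bases with another gene. VTC2, the controlling step of ascorbate synthesis, was higher in SQH by 2.98 (SE 0.80, mean count 35288), and the glutathione reductase genes GR and GR1 by 1.45 and 2.12.

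Catalase isogenes split by direction. CAT2 (AT4G35090) was higher in SQH by 2.72 (SE 0.91) and CAT3 and CAT1 were higher in FLH, at -3.33 (SE 0.87) and -2.81 (SE 0.55). CAT2 and CAT3 had mean counts of 80294 and 97551, so these isogenes were of like abundance. The genes are known to peak at different times, CAT2 in the morning and CAT3 in the evening.

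Clock genes divided by their time of day. Of 10 morning genes 9 were listed, 8 higher in SQH, and of 10 evening genes 6 were listed, all higher in FLH. CCA1 and LHY, the paired morning repressors, were higher in SQH by 5.14 (SE 0.99) and 7.19 (SE 1.13), and RVE8, an activator of evening genes, by 4.13. PRR7 was the exception among the morning genes, at -0.81 (SE 0.27). On the evening side, FKF1, a blue-light receptor of flowering, was at -8.01 (SE 1.49), BOA and LUX, the DNA-binding partners of the evening complex, at -6.35 and -4.74, ELF4 and ELF3 at -4.94 and -3.62, and TOC1 at -4.45 (SE 0.72). LUX and BOA share 1507 and 1896 bases with other annotated genes. GI and PRR5, which belong to the evening list, were not in the table.

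The B-box proteins, zinc finger regulators between light receptors, clock and flowering, had the largest listed share of all transcription factor families named here: 19 of 34 genes (55.9%), 11 higher in SQH and 8 in FLH. Those higher in SQH changed by a median of 3.90, among them BBX16 (3.17, SE 0.56), STH (3.98, SE 0.77), BBX19 (3.997, SE 0.80), BBX18 (3.64), BBX30 (4.45), BBX31 (4.01) and BBX32 (4.38). Those higher in FLH included COL5 (-1.56, SE 0.26, mean count 10270), COL9 (-3.61, SE 0.76), BBX13 (-3.47) and LZF1 (-2.40). BBX30, BBX31 and BBX32, small members with a single B-box, all lay on the SQH side. The receptors above them also split, and were looked up after the data were seen: PHYB, PHYE and PHOT2 were higher in SQH by 0.96, 1.12 and 1.34, and PHYA and CRY2, both known to be destroyed in light as proteins, were at -2.85 and -2.14. HY5 and HYH, leucine zipper activators that light stabilises, were higher in SQH by 2.64 and 3.47.

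Flavonoid genes were higher in SQH without exception among those listed. Of 22 enzyme and regulator genes on this list 11 were called, counting HY5 and HYH from above, by 2.45 to 6.74 with a median of 4.12. They included the regulators PAP2 (6.74, mean count 36.1), TT8 (5.06, SE 1.19), EGL3 (3.05), MYB11 (4.75), MYB12 (2.45) and PAP1, AT1G56650 (2.92, SE 0.84), and the late decorating enzymes UGT75C1 (4.12, SE 0.92, overlapping another gene by 447 bases) and AT5MAT (5.25, SE 1.91). The pathway's first enzymes, chalcone synthase and isomerase, were not in the table, whereas TT7, the hydroxylase described above, was. WRKY proteins were otherwise mostly higher in FLH, but TTG2, which acts with TT8 on pigment and hair genes, was higher in SQH by 3.55 (SE 0.70).

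Listed genes of the glucosinolate pathway, which makes defence compounds, were mostly higher in SQH. Of 24 genes 18 were listed, 16 higher in SQH. These were genes of the aliphatic, methionine-derived branch and of shared steps: the regulators MYB28 (2.41, SE 0.37), MYB29 (3.34, SE 0.58) and MYB76 (1.97), chain elongation by BCAT4 (2.29), MAM1 (1.82) and MAM3 (4.56), the oxime-forming CYP79F1 (2.57) and CYP79F2 (2.34), CYP83A1 (1.95, mean count 13200), and the side-chain enzymes FMO GS-OX1 (2.30) and AOP2 (3.26). The genes higher in FLH were the regulators of the indolic, tryptophan-derived branch, MYB51 (-4.30, SE 0.60) and MYB122 (-6.50, SE 2.51, mean count 4.65). The assimilation of sulphur that feeds this pathway was represented on the SQH side by APS1 (1.201, SE 0.38) and APR2 (2.54, SE 0.86), named after their values were seen. Glutathione transferases were even in number, 7 against 7 of 57. Higher in SQH were GSTU23 (3.25) and, among others, GSTU20 (3.09) and GSTF11 (3.09), which act in aliphatic glucosinolate synthesis. Higher in FLH were, among others, GSTF2 (-4.62), GSTF3 (-9.83) and GSTF7 (-4.02), which pathogens induce. GSTF11 and GSTF2 overlap other genes by more than 1000 bases.

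Of 24 genes of nitrate and ammonium assimilation 5 were higher in SQH and 2 in FLH. NRT1.1, the nitrate transporter and sensor, was higher by 2.44 (SE 0.45), the ammonium transporter AMT1;2 by 4.94 (SE 1.41) and the cytosolic synthetase GLN1;4 by 1.89. AMT2 and GLT1, the NADH-dependent glutamate synthase, were at -1.85 and -1.36. Genes of phosphate starvation were nearly absent, with MGD2 (1.26) and PS2, AT1G73010 (2.04), as the only listed members of 20, and none of 24 iron genes was in the table. In inositol synthesis, MIPS1 and MIPS2 were higher in SQH by 3.31 (SE 0.92, mean count 24232) and 4.802 (SE 0.70).

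Listed genes of the dividing cell were mostly higher in SQH. Of 49 histone genes 17 were listed, 16 of them higher in SQH, by 1.03 to 2.19, among them HTA10 (2.19, SE 0.33, mean count 2051), the histone H4 genes AT3G46320 (2.18, SE 0.32) and HIS4 (1.105, SE 0.18). The exception, HIS1-3, at -2.52 (SE 0.86), is the linker variant known to respond to drought. Of 74 DNA replication genes 14 were higher in SQH and 1 in FLH, with TSO2, a ribonucleotide reductase subunit, at 1.63 (SE 0.29), RPA70D at 2.25 (SE 0.41) and MCM10 at 2.08 (SE 0.49). Cyclins gave 12 against 2 of 67 and microtubule motors 12 against 1 of 45, with CYCD1;1 (1.97), CYCB1;4 (1.65), ATK3 (2.203) and KAC2 (1.63). KAC2 moves chloroplasts and not chromosomes, and the cyclins higher in FLH, CYCT1;3 (-2.03) and CYCP4;1 (-2.60), are not of the mitotic types. Histone copies are near-identical and their reads may be shared. Tubulins were not part of this group: the 3 listed of 16 were all higher in FLH, TUB5 at -3.48 (SE 0.65), TUB4 at -0.99 and TUA5 at -1.22.

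Several transcription factor families also lay mostly on the SQH side. Of 93 homeobox genes 12 were higher in SQH and 3 in FLH, a listed share of 16.1% that is close to the 16.4% of all protein-coding genes, with ATH1 at 2.45 (SE 0.47) and the leaf-polarity genes REV at 1.72 (SE 0.33) and PHB at 1.07 (SE 0.26). HAT1 (-3.31, SE 0.56) and HAT3 (-1.15, SE 0.44), which belong to the shade-responsive class, were on the FLH side. Auxin response factors and Aux/IAA repressors gave 10 against 2 of 51, with ARF8 at 2.06 (SE 0.36) and IAA28 at 1.77 (SE 0.33) against IAA2 at -1.29 and ARF6 at -0.89. Basic helix-loop-helix genes gave 21 against 7 of 140, led by FBH3, an activator of CONSTANS (3.20, SE 0.41), and MYC4, an activator of glucosinolate genes (2.82, SE 0.46), with HBI1, a growth promoter, at -2.53 (SE 0.47). In the GRAS family RGL2, a repressor of gibberellin responses, was higher in SQH by 3.57 (SE 0.71) and SCL13, which acts in red light signalling, was at -2.74 (SE 0.43). Of 25 brassinosteroid and gibberellin genes 4 were higher in SQH and 7 in FLH. In brassinosteroid synthesis ROT3 (1.89) and DWF4 (0.69) were higher in SQH and CPD (-1.94) in FLH, as was the receptor BRI1 (-0.80). Gibberellin synthesis and its removal took opposite sides, GA20OX1 (2.44) and GA3OX2 (3.84) in SQH and GA2OX6 (-2.73) and GA2OX2 (-1.702), with the receptors GID1A (-1.53) and GID1C (-1.49), in FLH. MYB and MYB-related genes gave 40 against 24 of 245.

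Some cell wall families lay mostly on a single side. Xyloglucan endotransglucosylases, which cut and rejoin the wall's hemicellulose, were higher in FLH in 10 of 11 listed cases out of 32 genes, XTH25 at -7.20 (SE 0.75), TCH4 at -5.89 (SE 0.63, mean count 7640) and XTH24 at -3.20 (SE 0.58). XTH32 was the exception at 2.78 (SE 0.85). Expansins, which loosen the wall without cutting it, were higher in SQH in 5 of 7 cases, EXPB3 at 3.14 (SE 0.47), EXPB1 at 3.15 (SE 0.65) and EXPA4 at 1.48 (SE 0.36), and the pair higher in FLH were expansin-like EXLA1 and EXLA3. Class III peroxidases gave 3 in SQH and 11 in FLH of 68, led by AT5G39580 (-6.59, SE 1.23) and AT4G37520 (-4.07, SE 0.88). Pectin enzymes and inhibitors were even, with 19 and 18 of 253. Of 21 ketoacyl-CoA synthases, which elongate fatty acids, 5 were higher in FLH, among them KCS12 at -6.76 (SE 0.88), KCS8 at -5.13 (SE 0.83) and KCS16 at -3.16, and KCS2, which shares 2343 bases with another gene, was higher in SQH by 2.19. The wax and cutin list was near even, with 4 genes higher in SQH and 5 in FLH of 26. WSD1, which makes wax esters, was higher in SQH by 3.44 (SE 0.46), CER1 by 0.97 and the reductase KCR1 by 0.75. On the FLH side were DEWAX, a repressor of wax synthesis, at -4.97 (SE 0.50, mean count 2754), and its activators MYB30 (-1.963), MYB96 (-1.49) and MYB94 (-0.95).

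**Figure D2:**
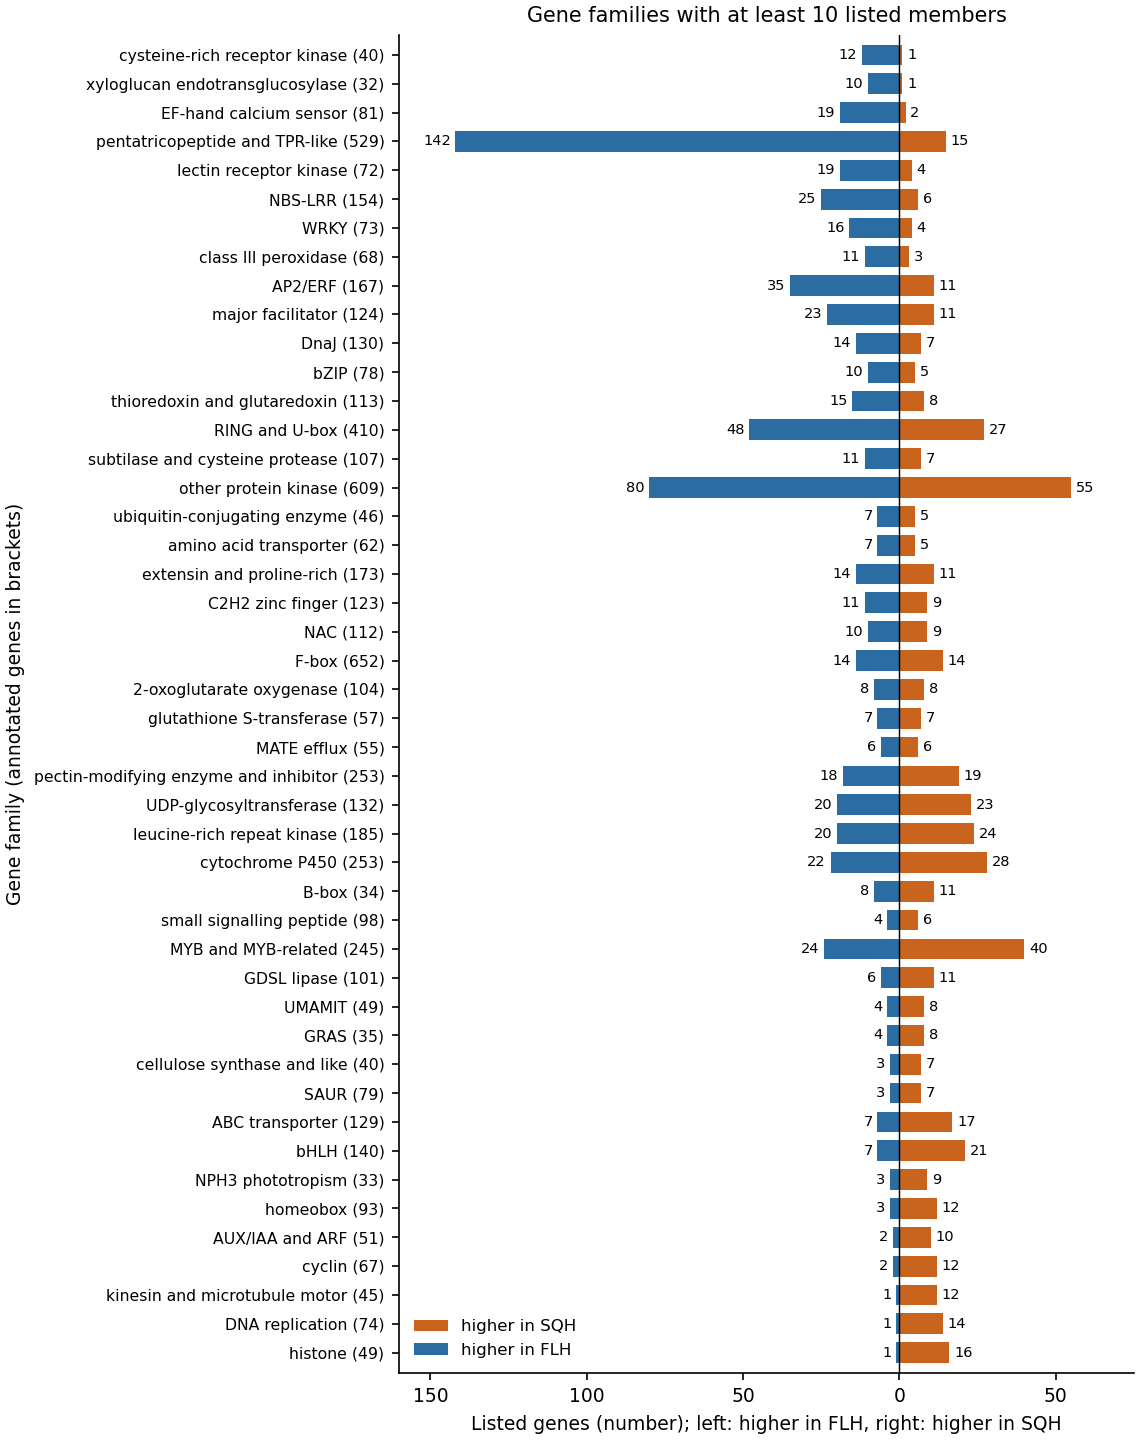
Number of listed members (horizontal axis) higher in FLH (bars to the left) and higher in SQH (bars to the right) in the 46 gene families with at least 10 listed members (vertical axis, annotated members in brackets), ordered by the share on each side. Pentatricopeptide and TPR-like proteins form the longest bar, 142 against 15, and histones, DNA replication and microtubule motors stand at the bottom, on the SQH end.

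On the FLH side, several families of receptors and calcium sensors lay mostly on a single side. Cysteine-rich receptor kinases gave 12 of 13 listed genes higher in FLH, of 40 annotated, with CRK2 at -1.83 (SE 0.34), CRK11 at -2.11 (SE 0.42) and CRK3 at -2.68 (SE 0.56). Lectin receptor kinases gave 19 of 23, and intracellular immune receptors of the NBS-LRR type 25 of 31, with AT5G22690 at -2.36 (SE 0.35), AT1G15890 at -3.51 (SE 0.57) and AT4G19520 at -1.68 (SE 0.32). Receptor-like kinases with leucine-rich repeats were in contrast even, with 24 and 20 of 185, and FLS2 (AT5G46330), the receptor of bacterial flagellin, was at -3.84 (SE 0.66). Calcium sensors with EF hands gave 19 of 21 higher in FLH, with 25.9% of 81 annotated genes listed. Calcium-dependent kinases gave 8 of 8, with 24.2% of 33 listed, among them CPK9 at -1.81 (SE 0.32), CPK6 at -1.83 (SE 0.39) and CPK28 at -2.19 (SE 0.48). TCH3, the touch-induced calmodulin-like gene, was at -3.12 (SE 0.57) with a mean count of 10980, and 1169 of its bases overlap another gene.

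Families of stress-related transcription factors also lay mostly on the FLH side. WRKY genes gave 16 higher in FLH of 20 listed and 73 annotated, WRKY26 at -3.66 (SE 0.71), WRKY53 at -3.49 (SE 0.69) and WRKY25 at -2.22 (SE 0.42), and AP2/ERF genes 35 of 46, of 167 annotated, with DREB26 at -5.61 (SE 0.79) and AT4G28140 at -4.87 (SE 0.75). The 4 listed heat shock factors of 21 (19.05%), among them HSF A4A (-2.19), HSFA3 (-2.57) and HSFA8 (-2.42), were all higher in FLH. Of 44 small heat shock proteins, assigned by product name, 8 were listed (18.18%), 6 higher in SQH and 2 in FLH. Both shares are close to the 16.4% of all protein-coding genes. The NAC family was even in number, 9 and 10, but its FLH members changed more, by a median of -3.78 against 2.21, led by NAC3 (AT3G15500) at -5.12 (SE 1.03). BRC1, the TCP repressor of bud growth, was at -8.06 (SE 1.54) at a low mean count of 16.3.

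The defence, ethylene and jasmonate lists had no member higher in SQH. Of 22 defence genes 9 were listed, all higher in FLH, from PR4 (-4.86, SE 0.89) and PR1 (-4.70, SE 1.45, mean count 13370) to the regulators SARD1 (-3.13) and CBP60G (-3.07) of salicylic acid synthesis, the penetration genes PEN3 (-2.91, mean count 23390), PEN1 (-1.53) and PEN2 (-0.82), and PDF1.2 (-1.94), a marker of jasmonate and ethylene. Of 21 ethylene genes 8 were listed, all higher in FLH, including the rate-limiting synthases ACS11 (-6.24), ACS8 (-3.35) and ACS6 (-1.84), the receptors ETR2 (-4.29) and ERS2 (-2.15), and both a positive and a negative arm of the pathway, EIN3 (-1.10) and CTR1 (-1.09). Of 26 jasmonate genes 8 were listed, likewise all on the FLH side, with the repressors JAZ8 (-3.15), JAZ7 (-3.24) and JAZ1 (-1.81), OPR3 of synthesis (-2.34) and the catabolic CYP94C1 (-3.70). Of 15 cold genes 5 were higher in FLH, among them CBF1 (-6.74, SE 1.13), CBF2 (-4.55, SE 0.77) and COR47 (-2.06, SE 0.71, mean count 13448), and GOLS3 was higher in SQH by 3.87 (SE 1.27). The abscisic acid list was even at 2 and 2 of 22, and its largest change was that of CYP707A3, which degrades the hormone, at -3.84 (SE 0.53).

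**Figure D3:**
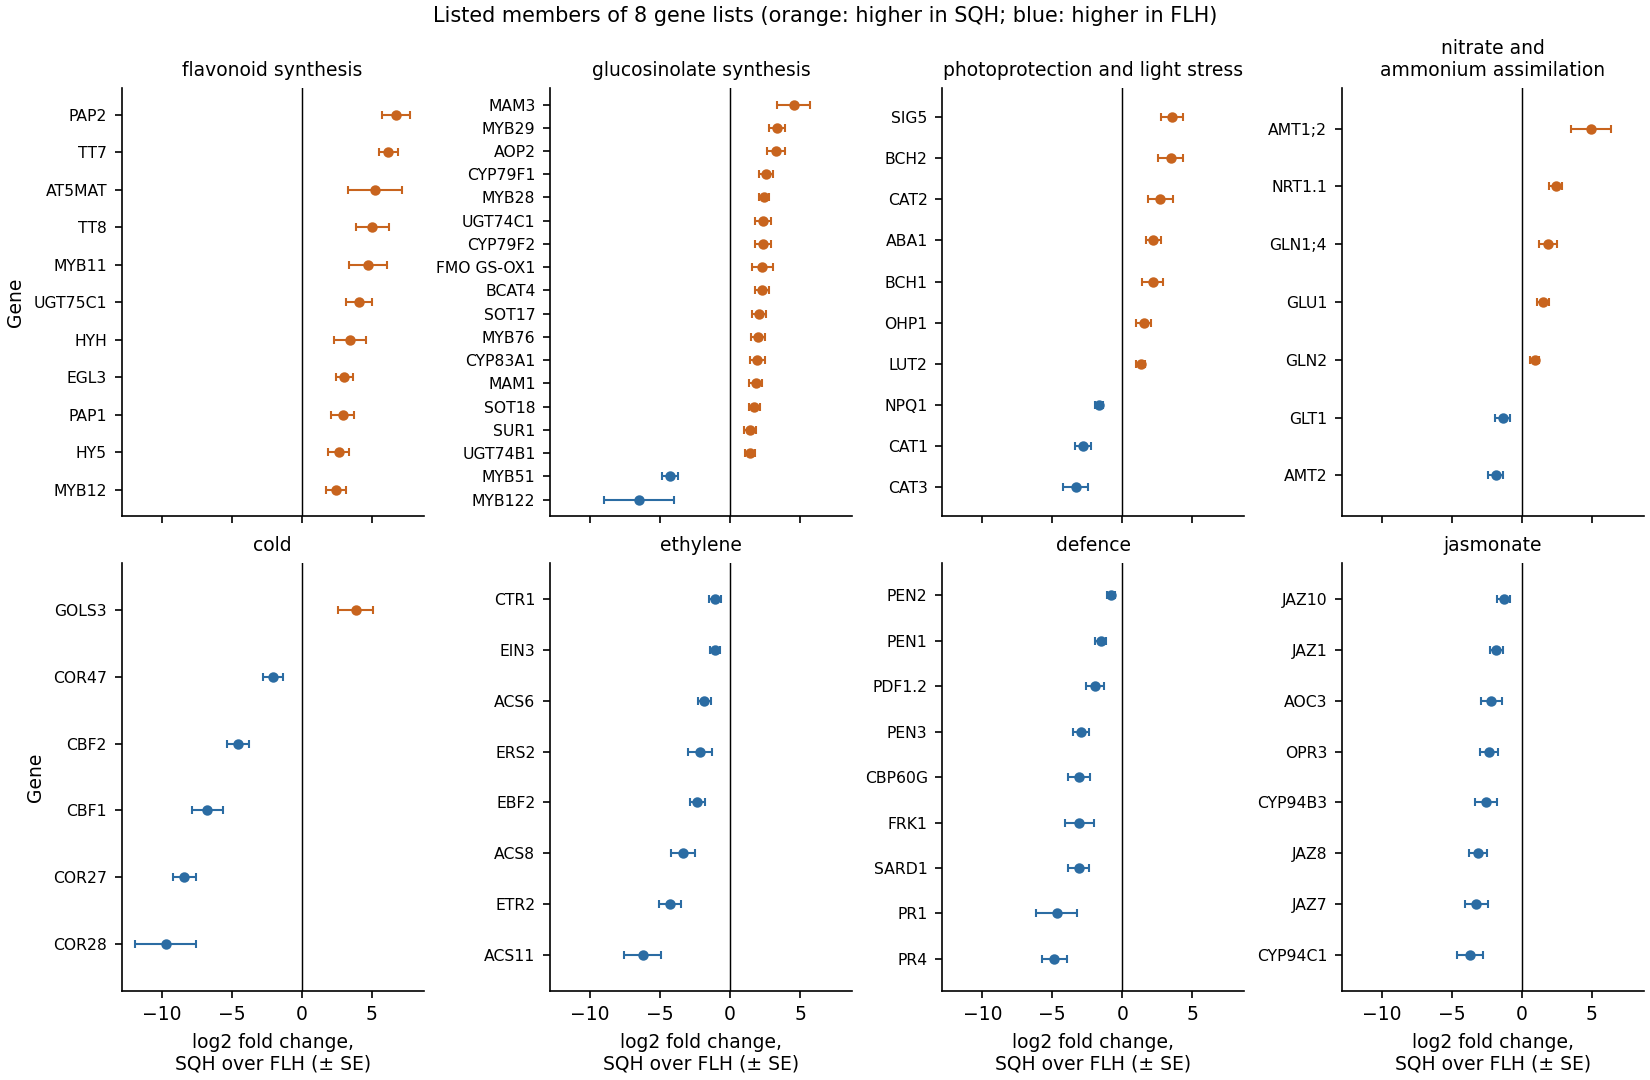
Log2 fold change of SQH over FLH for every listed member of 8 gene lists, with 1 point per gene on the horizontal axis and its standard error as a bar. All points of the flavonoid list lie right of 0, all points of the ethylene, defence and jasmonate lists lie left of 0, and the glucosinolate list has 16 points to the right and 2 to the left.

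Genes of carbon shortage included some of the large values on the FLH side, such as that of SEN1 (AT4G35770) given above. Of 17 listed by name 15 were higher in FLH, with DIN10 (-8.58, SE 0.89, mean count 9986), a raffinose synthase-like gene, BT2 (-8.05, SE 0.97), DRM1 (-8.22, SE 1.11), the class II trehalose phosphate synthases TPS8 (-4.24, SE 0.54), TPS11 (-4.71, SE 0.67), TPS9 (-3.85) and TPS10 (-3.36), and AKINBETA1, a subunit of the energy sensor SnRK1 (-4.77, SE 0.72). DIN9 was the exception at 1.59. Genes of branched-chain amino acid breakdown, which feeds respiration when sugar is short, belonged to the same side, MCCA at -3.89 (SE 0.79), DIN4 at -3.61 (SE 0.74), IVD at -2.05 and MCCB at -1.53. The major facilitator family, which holds sugar transporters and others, gave 23 in FLH and 11 in SQH of 124. Among its sugar transporters the hexose importer STP1 was at -5.51 (SE 0.67, mean count 12847), ERD6 at -4.10 (SE 0.49) and the polyol transporter PMT6 at -5.28 (SE 0.82). STP1 shares 438 bases with another gene. Autophagy gave 4 of 34 (11.8%, under the 16.4% of all protein-coding genes), all higher in FLH, with ATG8E at -3.52 (SE 0.58). Abundant proteins of turnover and stress, named after their values were seen, were on this side as well: the cysteine protease RD19 at -4.19 (SE 0.68, mean count 17710), the galactosidase BGAL1 at -4.10 (SE 0.72), ERD15 at -3.24 (SE 0.33), the membrane traffic protein PATL1 at -4.11 (SE 0.48) and the chaperone J8 at -5.03 (SE 0.80). Of 24 starch genes 6 were listed (25.0%, against 16.4% of all protein-coding genes), 4 higher in SQH and 2 in FLH. Those higher in SQH were the synthases SS3 (1.42) and SS2 (1.59), APL3 (1.46) and BAM9 (2.49), a non-catalytic amylase relative. Those higher in FLH were the degrading enzymes DPE1 (-3.77, SE 0.93) and PWD (-2.06).

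The largest family in the table was of another kind. Pentatricopeptide and TPR-like proteins had 157 listed genes of 529 (29.7%), 142 of them higher in FLH. The set pools by product name pentatricopeptide proteins, many of which bind organelle RNA, with TPR-like proteins, and these parts were not counted apart. Their mean counts were low, with a median of 43.1, and their median change was -2.25. AT5G61370 was at -3.81 (SE 0.57, overlapping another gene by 99 bases), AT3G11460 at -3.50 (SE 0.60), and AT4G32340, an abundant member at a mean count of 3744, at -5.11 (SE 0.83). AT5G02830 (2.425, SE 0.45) led the 15 higher in SQH. The direction went with abundance and with gene structure. Between mean counts of 10 and 100, 115 of 116 listed members were higher in FLH, between 100 and 1000 it was 21 of 26, and between 1000 and 10000 it was 5 of 13. Of listed members with a single exon 95 of 98 were higher in FLH, and of those with several exons 47 of 59.

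Single-exon genes outside this family leaned the same way. They were 20.8% of all annotated protein-coding genes, 15.0% of the listed genes higher in SQH, and 24.01% of those higher in FLH, or 21.4% without the pentatricopeptide and TPR-like family. Between mean counts of 10 and 100, 54.7% of 172 listed single-exon genes of other families were higher in FLH against 39.5% of 537 genes with several exons. The shares were 64.2% of 416 against 53.1% of 1484 between 100 and 1000, and 68.9% of 164 against 56.5% of 1349 between 1000 and 10000. In each of these ranges of abundance, single-exon genes were thus more often on the FLH side. The part of library preparation, RNA quality or residual genomic DNA in this was not tested, since values of single libraries are not analysed here. The evening element was in 6 of the 142 promoters of the FLH-higher family members (4.23%), against 3.59% in the whole pentatricopeptide and TPR-like family and 11.8% of all FLH-higher genes.

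**Figure D4:**
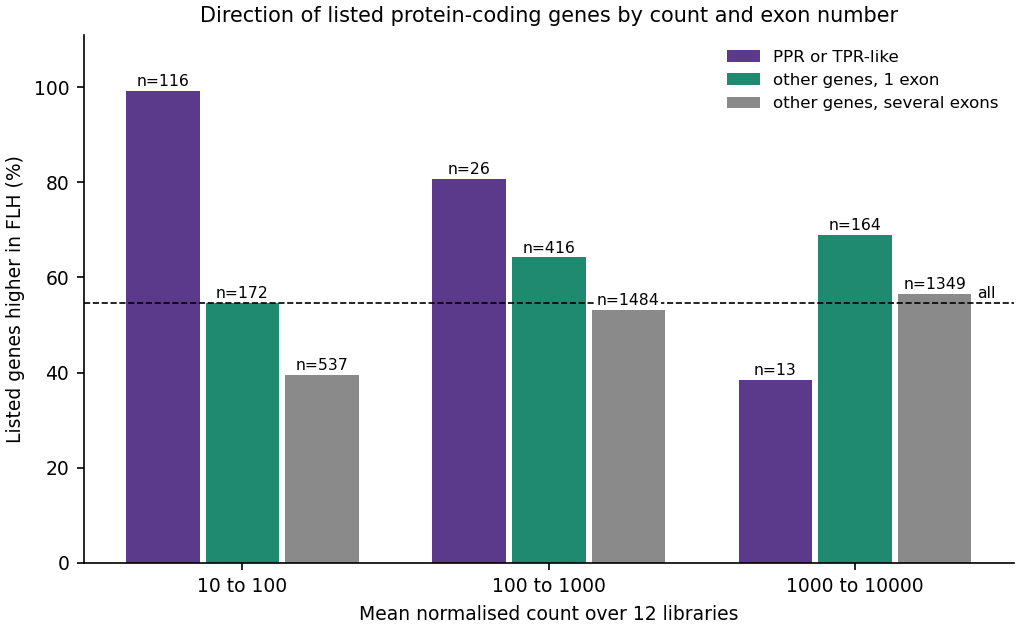
Percentage of listed protein-coding genes that were higher in FLH, by range of the mean normalised count, for pentatricopeptide and TPR-like genes, other single-exon genes and other genes with several exons, with the number of genes above each bar and the share of all listed protein-coding genes (54.7%) as a dashed line. The family stands at 99.1% between 10 and 100 and at 38.5% between 1000 and 10000, and other single-exon genes lie above genes with several exons in every range shown between 10 and 10000.

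Some large families were hardly present. Of 336 cytosolic ribosomal protein genes 7 were listed, of 67 organellar ones 1, of 65 proteasome subunits 1, and of 652 F-box genes 28, evenly divided. The F-box gene AT1G23390, of the Kelch type, was nevertheless at -3.20 (SE 0.51, mean count 5298). Cytochromes P450 gave 28 and 22 of 253 and UDP-glycosyltransferases 23 and 20 of 132. ABC transporters leaned to SQH, 17 against 7 of 129, with the vacuolar or plasma membrane ABCC10 at 2.41 (SE 0.31) and ABCC4 at 1.89 (SE 0.41). Over all 46 families with at least 10 listed members, 17 had at least 75% of them on a single side.

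Of the 4633 genes, 4524 were protein-coding, and among the rest were 7 microRNA precursors and the trans-acting RNA gene TAS3. The library held polyadenylated RNA, so these are levels of primary transcripts and not of mature microRNAs. MIR172b, whose product restrains repressors of flowering, was higher in SQH by 3.37 (SE 0.62, mean count 23.7), MIR157c, which targets SPL genes of the adult phase, by 1.87 (SE 0.48, mean count 105), MIR398c, which targets copper superoxide dismutases, by 2.50 (SE 0.88), and MIR169a, which targets NF-YA genes, by 3.31 (SE 1.25). MIR824 was higher in SQH by 1.82 (SE 0.39), with 467 bases overlapping another gene. MIR167d, which targets ARF6 and ARF8, was higher in FLH at -1.97 (SE 0.75, mean count 1068). MIR822 was also higher in FLH, at -1.64 (SE 0.49, mean count 55.3), with 337 bases overlapping another gene. TAS3, the source of small RNAs against other auxin response factors, was higher in SQH by 3.66 (SE 0.67, mean count 750). No seed (bases 2 to 8, in capitals) was shared between these mature sequences, which are from the TAIR10.1 annotation.
miR157c-5p: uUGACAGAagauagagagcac
miR172b-3p: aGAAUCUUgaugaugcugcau
miR167d: uGAAGCUGccagcaugaucugg
miR398c-3p: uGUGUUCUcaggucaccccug
miR169a-5p: cAGCCAAGgaugacuugccga

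Transcripts of 27444 genes were searched for stretches complementary to these sequences with at most 3 mismatches, wobble pairs counted as mismatches. For miR157c-5p 12 genes matched, of which 4 were listed: SPL10 (2.03, SE 0.36), SPL11 (2.70, SE 0.57) and SPL15 (3.19, SE 0.71, overlapping another gene) were higher in SQH, like the precursor, and SPL4 was at -2.88 (SE 0.68). The first 3 share a site in the coding sequence with 1 mismatch, and that of SPL4 is in a UTR with 3 mismatches (lower case marks mismatches).
SPL10, SPL11 and SPL15: GUGCUCUCUcUCUUCUGUCAA
SPL4: cUGCUCUCUcUCUUCUGUCAu
For miR172b-3p 6 genes matched and 2 were listed, the flowering repressors SMZ (1.72, SE 0.59) and TOE3 (2.07, SE 0.49), both higher in SQH with the precursor. The search found no gene for miR167d within 3 mismatches. Of its targets named above, ARF8 was higher in SQH by 2.06 and ARF6 was at -0.89, on the side of the precursor. Precursor and listed target were thus on the same side for SPL10, SPL11, SPL15, SMZ, TOE3 and ARF6, and on opposite sides for SPL4 and ARF8. Other small RNA loci were few: 4 small nucleolar RNAs were higher in SQH, by 1.09 to 3.20, the serine tRNA gene AT3G09595 by 7.67 (SE 1.95, mean count 37.5), and the non-coding RNA AT3G61198 was at -6.90 (SE 1.40).

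Set beside the corresponding comparison at low intensity (SQL, square light, low intensity, against FLL, fluctuating light, low intensity), which shares no library with this one and in which 8.2% of the genes tested were called, 641 genes were listed in both. Of these, 545 had the same direction and 96 the opposite one. The difference between both fold changes was tested by a z test on the deposited estimates and SEs with Benjamini-Hochberg adjustment over the 641 genes. It passed an adjusted p of 0.05 in 117 genes, 21 with the same direction, in all of which the high-intensity change was the larger, and all 96 with opposite directions. Adjusting both kinds together eased the threshold for genes with the same direction, of which 4 passed Bonferroni correction. In the study's alignment statistics the FLL libraries stand apart from most others, and the part of this in the differences was not tested. Groups reached low intensity to unlike degrees. Of the 11 listed flavonoid genes, 5 were also listed at low intensity, TT7 at 3.37, TT8 at 4.71, EGL3 at 2.196, MYB12 at 3.80 and AT5MAT at 7.03, and over the whole list 8 genes were higher in SQL and none in FLL. Histones gave 13 genes higher in SQL and 1 in FLL, replication genes 12 and 1, and the evening clock genes 0 and 4. Other families reversed their majority or came near even, at small numbers in most. The pentatricopeptide and TPR-like genes gave 10 in SQL and 12 in FLL, homeobox genes 0 and 4, and Aux/IAA and ARF genes 1 and 3. EF-hand sensors gave 3 and 0 and xyloglucan endotransglucosylases 2 and 0. The majority side stayed the same, by a smaller margin, in WRKY genes (3 and 5), AP2/ERF genes (6 and 12) and basic helix-loop-helix genes (7 and 4). These differences between families were not tested. The cytosolic ribosomal proteins, nearly absent here, gave 48 higher in SQL and 4 in FLL, and the jasmonate list, all on the FLH side here, 6 in SQL and none in FLL.

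Approximate regime means can be computed from the fold changes and the mean count for genes in at least 3 tables, without an error of their own. For TT7 they were 5394 normalised counts in SQH and 506 in SQL, against 73.2 in FLH and 48.9 in FLL, so both square regimes lay above both fluctuating ones. For STP1 they were 751 in SQH, 3301 in SQL, 13030 in FLL and 34310 in FLH, and for MEE14 28.9, 602, 6321 and 23430 in the same order. In these genes square light at high intensity and fluctuating light at high intensity were the extremes, with both low regimes between them. AT2G15020 and BBX16 showed a different order. AT2G15020 had means of 8780 in SQH and 9012 in FLL but 112 in FLH and 1123 in SQL, and BBX16 had 7913 and 10910 against 877 and 2637.

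A group of related regulators changed direction between the intensities and was picked after the values were seen. MYB70, MYB73, MYB77 and MYBR1, closely related MYB proteins, were at -2.68, -3.32, -2.47 and -2.58 at high intensity and at 1.95, 1.76, 2.74 and 1.95 at low intensity. The AP2/B3 genes RAV1 (-3.17 and 2.06) and TEM1 (-2.84 and 1.43) behaved likewise, as did the EXORDIUM family members EXO (-3.71 and 3.73), PHI-1 (-4.94 and 4.26) and EXL5 (-3.48 and 3.27), CYP707A3 (-3.84 and 2.01) and WRKY18 (-3.12 and 1.98). EXL4, of the same family as EXO, kept its direction (-2.39 and -2.08). The B-box genes BBX16 (3.17 and -2.05) and BBX29 (3.36 and -3.02) reversed in the other sense. A gene called in both comparisons with opposite signs passes the test of the difference nearly by construction, so the count of such genes gives no support of its own.

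**Figure D5:**
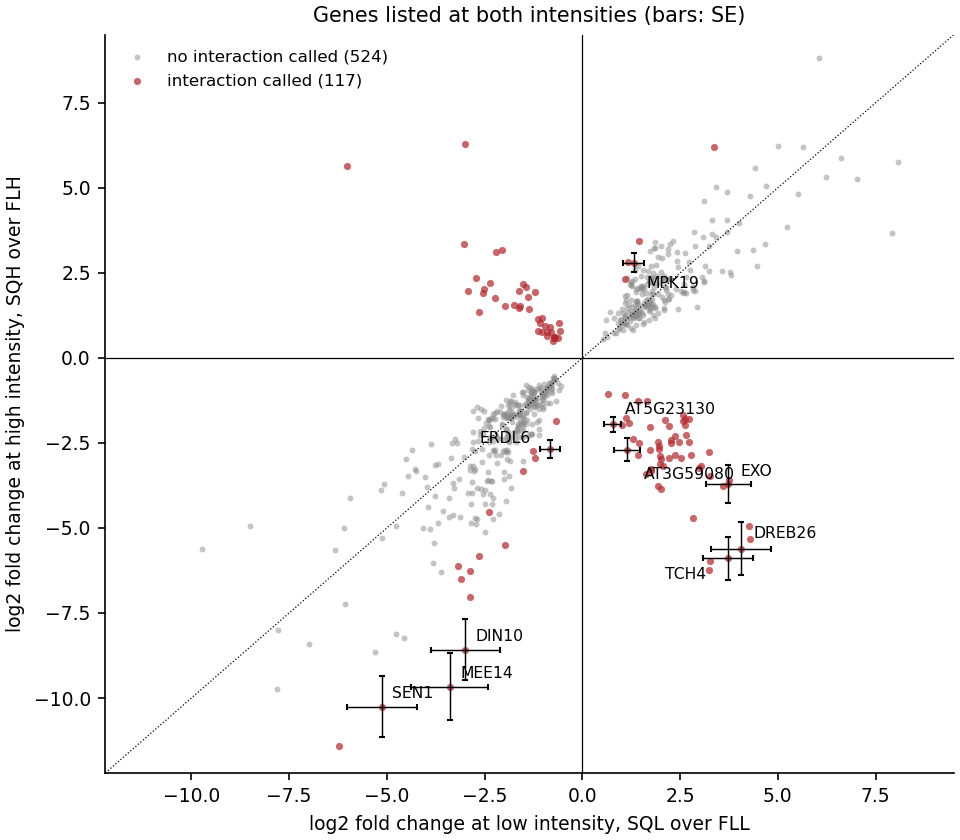
Log2 fold change of SQH over FLH (vertical axis) against that of SQL over FLL (horizontal axis) for the 641 genes listed in both comparisons, with the 117 genes whose difference passed the z test in red and the SE of the named ones as bars. Most points lie in the quadrants of the same sign, and TCH4, EXO and DREB26 lie far out at the lower right.

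Marker genes of cell types were looked up among the listed genes. Being listed means differing between SQH and FLH, so the lookup cannot check the tissue label. Leaf mesophyll markers were among the most abundant listed transcripts, 4 of 9 being listed and all higher in SQH (RBCS3B, RBCS2B, RCA and CA1). None of 7 flower markers was listed, which does not show that they were absent. Of 10 guard cell markers 4 were listed, all higher in SQH, MYB60 at 1.26, ALMT12 at 1.24, KAT1 at 0.98 and FAMA at 0.97, and of 12 markers of dividing cells 5, by 1.58 to 2.28. The root list had SCR (1.38) and SHR (1.68), which leaves express around their veins too, the vascular list ATHB-8 (1.16) and IRX5 (0.78), the phloem list AHA3 (0.63) and the epidermal list the hair repressor TRY (3.57, SE 1.05). All 19 listed markers of these sets were higher in SQH, where 45.46% of all listed genes lay. Levels of unlisted markers are not analysed here. In whole leaves, fewer cells of a type and less RNA per cell cannot be told apart, which bears on the histone, replication and guard cell values above.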

How the data were processed

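Leaf RNA-seq libraries were grouped by their titles. According to the submitters' processing notes and the study's methods, the authors aligned reads to TAIR10 with HISAT2, processed alignments with SAMtools, counted with featureCounts and tested with DESeq2. Versions, strandedness and counting options are not given in the sources used here. The deposited first column is a signal, the mean over 12 libraries of counts divided by size factors. The deposited fold change and its SE are on the log2 scale, unshrunken. The authors' Wald statistic is a score, beside which the authors gave its p-value and the same p-value after Benjamini-Hochberg adjustment. Genes past an adjusted p of 0.05, or under 0.5 on the log2 scale in either direction, were left out of the tables. These are the authors' own comparison columns, and their genes define what is described. The 4 tables used hold 0 columns of values per library, so depth per library is unknown from them, no model was refitted, and p-values cover only the spread between these samples.

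How many genes had been tested was worked out from adjusted p divided by p. The z test and this step were tested on simulated data beforehand. Locus tags were looked up in the TAIR10.1 annotation (4626 of 4633 had a record, 7 did not, and organelle locus tags of that annotation could not be matched). Of the 4633, 1356 (29.3%) overlap another gene, and without known strandedness their reads are uncertain. Families (75) were assigned from product names, and 17 lists and 8 marker sets by symbol or locus. Members and lists were chosen with earlier results of these data known. Per direction, the named genes were the 6 with the smallest p and the 6 with the largest change (both at a mean count of at least 100), the 6 with the highest mean count, the 2 just inside the fold-change threshold, up to 3 per family or list with the smallest p, and the 5 with the smallest interaction p of each kind; other names were chosen after their values were seen and belong to the lists or are marked so. Comparisons sharing libraries with this one were used for the check of the sign, for counts of loci over the series and for approximate regime means. Alternatives were stricter thresholds, count minimums and leaving out overlapping genes. Python 3.11.15, pandas 2.3.3, NumPy 2.4.6, SciPy 1.17.1 and Matplotlib 3.10.9 were used.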

Additional observations from a re-analysis of the deposited data

Results flagged for a closer look

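The difference between the change from fluctuating to square light at high and at low intensity passed the z test (adjusted p of at most 0.05 over 641 genes) in 117 genes. In the study's alignment statistics the FLL libraries stand apart from most others, and the part of this in these differences was not tested. With the same direction at both intensities, the smallest p values belonged to ERDL6, whose difference (high minus low, log2 scale) was -1.86 (SE 0.37), MEE14 at -6.27 (SE 1.40), DIN10 at -5.58 (SE 1.26), SEN1 (AT4G35770) at -5.13 (SE 1.27) and MPK19 at 1.49 (SE 0.38). The Bonferroni-adjusted p of MPK19 was 0.0627, and those of the other 4 genes were 0.0347 or lower.

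With opposite directions, they belonged to TCH4 at -9.62 (SE 0.90), EXO at -7.44 (SE 0.81), DREB26 at -9.67 (SE 1.104), AT5G23130 at -2.73 (SE 0.32) and AT3G59080 at -3.84 (SE 0.47). The approximate regime means of TCH4 were 339 normalised counts in SQH, 20180 in FLH, 9336 in SQL and 706 in FLL, and those of AT3G59080, a secreted aspartyl protease gene, were 165, 1068, 605 and 274 in the same order. Genes enter this test only when called in both comparisons. A gene with opposite directions is called in each by itself, so that passing the test follows nearly by construction, whereas a gene with the same direction is not favoured in this way.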

How the results depend on the processing

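No paired analysis was possible because the tables hold no values per library, and for the same reason leaving out each replicate could not be run. The share of listed genes higher in FLH ranged from 54.4% to 62.1% over the alternatives and stayed above 50% in each. An adjusted p of at most 0.01 left 2800 genes, 1213 higher in SQH and 1587 in FLH, and 9 one-sided families in place of 17; Bonferroni correction left 823, 312 and 511 genes. Requiring the 95% interval to lie beyond 0.5 left 1388 genes higher in SQH. A mean count of at least 100 left 11 one-sided families. Of 242 majorities of families and lists checked under 3 alternatives, 234 kept their sign and 8 reversed. The reversals, as genes higher in FLH minus genes higher in SQH, were at an adjusted p of at most 0.01 those of C2H2 zinc fingers (-2), small signalling peptides (1), arabinogalactan and fasciclin proteins (1) and ubiquitin-conjugating enzymes (-2), at a mean count of at least 100 those of lipid transfer proteins (1) and C1 domain proteins (1), and without overlapping genes those of UDP-glycosyltransferases (2) and starch genes (1). These alternatives remove genes from the table and test nothing anew. Motif shares stayed on the same side of the share in all promoters in 20 of 20 comparisons when only the 250 bases before the start were read. The interaction count was 108 at an adjusted p of 0.01 and 98 with Bonferroni correction. Depth per library is unknown here, and genes with a mean count under 10 carry a median SE of 1.63.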
